A study of Mus musculus with 9 samples.

Results

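The genes of oxidative phosphorylation were examined in the neural retina of mouse pups at postnatal day 4 (P4), in 5 pools of Opn4 knockout retinas and 4 pools of wildtype retinas. Members were all gene symbols of the count table that begin with the prefixes of the subunits of complexes I to V (Nduf, Sdh, Uqcr, Cox4 to Cox8, Atp5 and the mitochondrial mt- symbols), without the 8 such symbols that mark pseudogenes by -ps. They numbered 109 of 53280 genes, 96 encoded in the nucleus and 13 in the mitochondrial genome. The prefixes also took in 12 assembly factors (Ndufaf and Sdhaf), 7 isoforms of cytochrome c oxidase subunits that are specific to a tissue or to low oxygen, and 3 relatives of subunits (Ndufa4l2, Cox7a2l and Atp5s). This left 74 nuclear genes of structural subunits. Of the 109 members, 106 passed the filter on low counts. The testis and muscle isoforms Cox7b2, Cox8b and Cox8c did not.

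Opn4 encodes melanopsin, the photopigment of the intrinsically photosensitive retinal ganglion cells. Knockout pups and their wildtype littermates were born to crosses between Opn4+/- mice and genotyped at birth and again after dissection. Every pool of either genotype held 4 retinas from 2 animals, raised at about 300 lux, taken at 6 to 7 h of zeitgeber time (ZT) and frozen in Trizol, and gave 1 library of polyadenylated RNA. The labels give neither sex, strain, litter nor the design of the allele, and no label joins a knockout pool to a wildtype pool. The libraries held 65.5 to 86.1 M counts (M, mega). Opn4 stood at 1.07, 1.82, 1.15, 1.42 and 1.35 CPM (counts scaled to library size) in the knockout pools, against 11.8, 11.4, 12.03 and 11.6 CPM in the wildtype pools, so each library matched its label. Of the retinal cell type markers, 10 of 12 rod genes were higher in knockout pools (summed 3682 to 5225 CPM, against 3127 to 3455 CPM in wildtype pools). Of 12 markers of progenitors and dividing cells, 9 passed the test downward and 1 upward (summed 1148 to 1291 CPM in knockout pools, against 1623 to 1761 CPM in wildtype pools). Upward it was also passed by 4 of 8 bipolar cell, 2 of 5 horizontal cell, 1 of 6 Müller glia and 2 of 7 tested lens markers. Downward it was passed by 2 of 7 amacrine cell and 5 of 6 red blood cell markers, and no marker of the other lists passed. Of all genes tested, 1.34% passed upward and 2.25% downward. In whole retina, fewer cells of a type and less RNA per cell cannot be told apart.

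Oxidative phosphorylation passes electrons from NADH (complex I) and succinate (complex II) through ubiquinone, complex III, cytochrome c and complex IV to oxygen, and complex V, the ATP synthase, uses the proton gradient built on the way. Complexes I, III, IV and V are assembled from subunits of both genomes, so that nuclear genes and the many copies of mitochondrial DNA must both be expressed, whereas complex II is nuclear alone. Photoreceptors are among the most oxygen-demanding cells of the body, and the nuclear respiratory factor NRF1, ETS factors such as GABP (NRF2) and YY1 are known regulators of the nuclear subunit genes.

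The nuclear genes differed in the promoter sequences before their start sites, and 4 of these are shown, each as the 200 bases upstream of the start in RefSeq on GRCm38.p6, 5′ to 3′ on the gene's strand. Capitals mark the letters of the palindromic NRF1 motif or of ETS factors (CCGGAAG) on either strand. Sdha, the flavoprotein of complex II (chr13:74350241-74350440, minus strand), and Uqcrh, the hinge protein of complex III (chr4:116075071-116075270, minus strand), were the genes of highest level in their complexes with 1 annotated start. Cox6b1 (chr7:30626115-30626314, minus strand) is the general isoform of complex IV subunit 6b, and Cox6b2 (chr7:4753095-4753294, minus strand) is its testis isoform, the member with the smallest p of all.
Sdha: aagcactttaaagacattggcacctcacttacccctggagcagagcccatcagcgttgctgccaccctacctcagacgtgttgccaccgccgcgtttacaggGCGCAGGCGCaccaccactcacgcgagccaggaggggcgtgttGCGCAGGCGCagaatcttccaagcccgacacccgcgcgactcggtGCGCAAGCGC
Uqcrh: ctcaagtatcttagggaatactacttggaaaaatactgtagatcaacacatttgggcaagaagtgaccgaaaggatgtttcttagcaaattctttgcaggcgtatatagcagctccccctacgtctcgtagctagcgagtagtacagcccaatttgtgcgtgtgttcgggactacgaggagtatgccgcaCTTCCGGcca
Cox6b1: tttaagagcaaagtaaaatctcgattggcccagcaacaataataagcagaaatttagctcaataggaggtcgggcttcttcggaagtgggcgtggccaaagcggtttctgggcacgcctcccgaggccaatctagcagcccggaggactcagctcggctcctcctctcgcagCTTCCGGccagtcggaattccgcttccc
Cox6b2: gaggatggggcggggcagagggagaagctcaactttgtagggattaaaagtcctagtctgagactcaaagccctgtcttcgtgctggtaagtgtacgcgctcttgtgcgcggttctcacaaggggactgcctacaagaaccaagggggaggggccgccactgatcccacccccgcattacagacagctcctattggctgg
The Sdha window held NRF1 letters at 3 places, and the windows of Uqcrh and Cox6b1 each held ETS letters within 28 bases of the start. The Cox6b2 window held neither. Ndufv3, Cox8a and Atp5b, picked as Sdha and Uqcrh were but for complexes I, IV and V, also held neither in their 200 bases (not shown). RefSeq windows of 250 bases before to 50 bases after the start were at hand for 78 of the 96 nuclear members. In this longer window Cox8a did hold ETS letters, and Ndufv3 and Atp5b again held neither. Among 67 windows of 62 nuclear structural subunit genes, NRF1 letters were found on either strand in 18 (26.9%), against 4.603% of all 32851 windows. ETS letters were found in 16 (23.9%), against 8.86% of all windows, and those of YY1 (AAGATGGC) in 9 (13.4%), against 2.75%. At least 1 of these 3 motifs lay in 37 windows (55.2%), against 14.7% of all windows. The GC box (GGGCGG) was about as frequent as elsewhere (37.3% against 35.7%), and TATAAA was found in 8.96% of the subunit windows and in 13.6% of all. Matches of NRF1 and GC box letters can lie in the same GC-rich stretch, and a match is a description of the sequence, not a bound site.

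The mitochondrial mRNAs were far more abundant than the nuclear ones. In TPM (a level scaled by transcript length and library size, here the sum over a gene's transcripts and the mean of all 9 pools), the 13 mitochondrial genes lay between 1499 TPM for mt-Nd3 and 14568 TPM for mt-Co1, the catalytic subunit of complex IV. The 74 nuclear structural genes lay between 44.0 TPM for the complex I subunit Ndufb4 and 1254 TPM for Atp5b, the catalytic beta subunit of the ATP synthase. The ranges did not meet. Complex IV had the highest nuclear median, 647 TPM, against 351 TPM for complex V, 338 TPM for complex III, 226 TPM for complex I and 196 TPM for complex II.
The highest nuclear gene was Ndufv3 in complex I (402 TPM), Sdhc, a membrane anchor, in complex II (268 TPM), Uqcrh in complex III (509 TPM) and Cox4i1, the general isoform of subunit 4, in complex IV (978 TPM). The assembly factors had a median of 36.1 TPM and a range from 5.31 TPM for Sdhaf3 to 58.8 TPM for Sdhaf4. All were lower than every structural subunit but Ndufb4 and the ATP synthase gene Atp5g2. Within complex II, the 4 subunits lay within 1.96-fold of each other, whereas complex I spanned 9.15-fold and complex V 28.2-fold. The low ends of complexes I and V were 2 genes whose transcripts match another gene. Ndufb4 shares 390 bases at 100% identity with Ndufb4c, which was listed at 319 TPM, and the c-ring gene Atp5g2 (44.5 TPM) shares 645 bases at 100% identity with Gm10175, listed at 615 TPM. The split of TPM between such copies is uncertain, and so are these 2 low values.

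**Figure D1:**
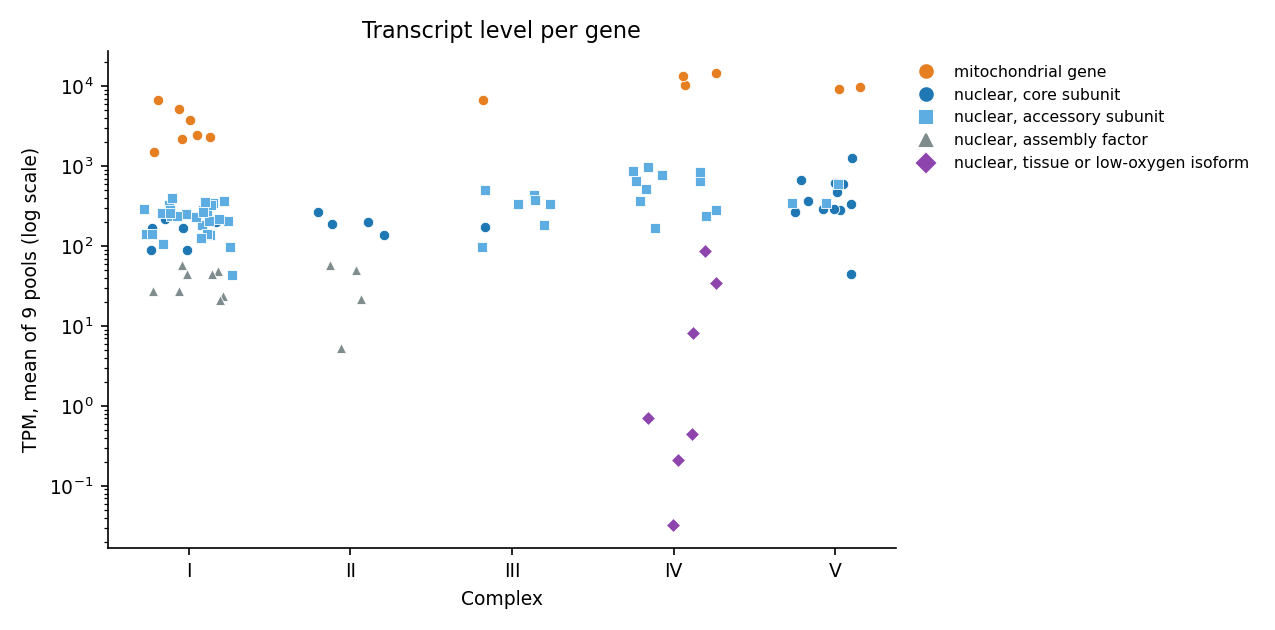
Transcript level of each gene by complex (Ndufa4l2, Atp5s and Cox7a2l are not drawn), as mean TPM of the 9 pools on a log axis, with nuclear subunits, mitochondrial genes, assembly factors and isoforms in separate colours. The mitochondrial genes (1499 to 14568 TPM) sit above every nuclear gene (at most 1254 TPM). The assembly factors and isoforms sit below all structural subunits but Ndufb4 and Atp5g2.

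These mRNAs differed little between the genotypes. No member passed the test between knockout and wildtype, 0 higher and 0 lower of 106 tested (edgeR's quasi-likelihood test, adjusted p under 0.05), while 3.59% of all 21150 genes tested did (760 genes, 1.34% higher and 2.25% lower). At an unadjusted p under 0.05 stood 10 of 106 members, against 16.5% of all genes. DESeq2 called 4 members, mt-Co1, mt-Nd4l and mt-Nd5 higher and Cox6b2 lower, against 7.13% of all genes (3.31% higher and 3.82% lower). The limma test on TPM called none (2.16% of all genes). The authors' deposited table held 105 members, none with a q-value under 0.05 and 6 with a p-value under 0.05, and called 1.46% of all its 17433 genes. Every pool of 1 genotype exceeded every pool of the other in 7 of 106 members, 6 higher and 1 lower in knockout, while this held for 8.29% of all genes (3.92% higher and 4.37% lower).

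The intervals were narrow. The median log2 fold change (knockout minus wildtype) of the 74 nuclear structural genes was 0.01, as was that of the 7792 genes in the same range of CPM, and that of all genes tested was 0.0012. The median size of the change, sign aside, was 0.04 in the subunit genes, 0.07 in genes of the same CPM range and 0.11 in all genes. The 95% interval of the fold change stayed within 1.2-fold either way in 72 of the 74 structural genes and within 1.5-fold in all 74. The exceptions to the 1.2-fold bound were the complex I accessory subunits Ndufa12 (log2 interval −0.16 to 0.39) and Ndufa2 (−0.28 to 0.02). Ndufa12 stood at 33.001, 51.7, 38.1, 32.1 and 36.2 CPM in knockout pools and at 30.8, 36.2, 41.1 and 33.1 CPM in wildtype pools. In CPM, knockout pool 2 was high and the other pools of both genotypes overlapped. In TPM that pool was not high, at 311 TPM, against 298 to 362 TPM in the other knockout pools and 287 to 395 TPM in wildtype pools. This gene shares 402 bases at 99.5% identity with Gm15920, and the ratio of the copy's counts to its own varied between 0.218 and 1.13 over the pools.

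**Figure D2:**
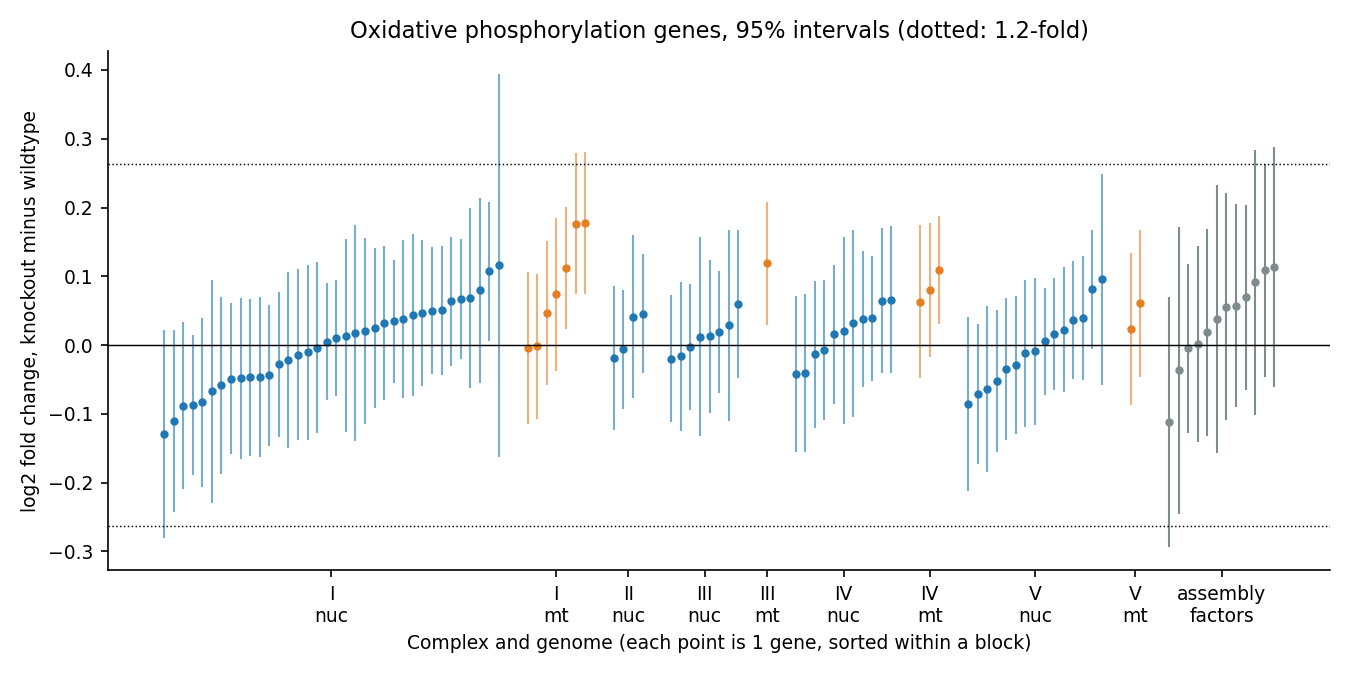
Log2 fold change (knockout minus wildtype) with 95% interval for the subunit genes of each complex and genome and for the assembly factors, sorted within each block; dotted lines mark 1.2-fold. The nuclear subunit genes centre on 0, with complex medians from −0.009 to 0.02, and 11 of the 13 mitochondrial genes lie above 0.

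In complex I, the 7 nuclear core subunits, which carry the flavin and the iron-sulphur clusters, had a median log2 fold change of 0.01. Ndufs1, the largest of them, held 114 ± 1.79 CPM in knockout and 110 ± 6.3 CPM in wildtype pools (SD, n = 5 and 4; log2 fold change 0.05, interval −0.04 to 0.15), and Ndufv1, which binds NADH, held 117 ± 2.25 and 116 ± 4.94 CPM. Both groups of pools overlapped in each. Of the 29 accessory subunits, 14 had a positive and 15 a negative value, between −0.13 for Ndufa2 and 0.12 for Ndufa12. Ndufb2, an accessory subunit of the membrane arm, was the single structural nuclear gene with an unadjusted p under 0.05, with 58.0, 58.4, 54.4, 54.4 and 52.3 CPM in knockout pools and 52.7, 49.9, 52.8 and 50.7 CPM in wildtype pools. Its lowest knockout pool fell below 2 of the wildtype pools, and its log2 fold change of 0.11 (SE 0.05) had an edgeR adjusted p of 0.276. Ndufv3, a small accessory subunit of the flavoprotein part, held 85.0 ± 3.86 CPM in knockout and 87.7 ± 6.58 CPM in wildtype pools.

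Complexes II and III had the smallest changes, with a median size of 0.03 and 0.02 on the log2 scale. The 4 subunits of succinate dehydrogenase lay between −0.02 and 0.05 on the log2 scale. Sdha, whose promoter is given above, held 223.9, 228.9, 241.0, 233.0 and 219.2 CPM in knockout pools and 221.9, 226.3, 224.7 and 215.4 CPM in wildtype pools. The pools of both genotypes overlapped, and the fitted log2 difference was 0.05 (interval −0.04 to 0.13). Sdhc held 91.1 ± 3.33 CPM in knockout and 88.6 ± 7.54 CPM in wildtype pools. In the authors' deposited table, Sdha had a log2 effect of 0.17 higher in knockout with a q-value of 0.247. The 8 nuclear genes of complex III lay between −0.02 and 0.06. Uqcrfs1, the Rieske iron-sulphur protein, held 119 ± 3.99 CPM in knockout and 118 ± 4.14 CPM in wildtype pools, Uqcrh 93.2 ± 2.58 and 93.4 ± 4.62 CPM, and the core protein Uqcrc1, of lowest TPM in the complex (97.0), 164 ± 12.9 and 161 ± 12.5 CPM.

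The 11 general nuclear subunits of complex IV had a median log2 fold change of 0.02 and a range of −0.04 to 0.07. Cox4i1 held 282, 286, 316, 283 and 296 CPM in knockout pools and 280, 271, 333 and 270 CPM in wildtype pools. Wildtype pool 3 was the highest of all 9 pools and the other 3 wildtype pools were below every knockout pool, which left a log2 fold change of 0.02 (interval −0.12 to 0.16). Cox8a, a small membrane subunit, reached 0.07 (158 ± 1.73 CPM in knockout and 151 ± 11.8 CPM in wildtype pools), and Ndufa4, once counted to complex I and now to complex IV, 0.06 (142 ± 4.91 and 136 ± 9.09 CPM).

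The 15 nuclear subunits of the ATP synthase had a median of −0.009. Atp5b, the most abundant nuclear member, held 928, 963, 997, 969 and 983 CPM in knockout pools and 912, 916, 957 and 875 CPM in wildtype pools. Knockout pool 1 fell below wildtype pool 3, the other knockout pools lay above every wildtype pool, and the fitted log2 difference was 0.08 (SE 0.04, interval −0.01 to 0.17, edgeR adjusted p = 0.344). The 5 subunits of the F1 head had a median of 0.02 and the 4 of the peripheral stalk one of −0.0031. The c-ring, whose identical protein is made from 3 genes, held 62.3 ± 3.20 CPM of Atp5g1 in knockout and 58.3 ± 6.76 CPM in wildtype pools, 117 ± 7.36 and 124 ± 9.14 CPM of Atp5g2, and 181 ± 4.75 and 176 ± 7.88 CPM of Atp5g3. The 3 genes together summed to 353 to 365 CPM in knockout pools and to 334 to 390 CPM in wildtype pools. Atp5s, a coupling factor of the ATP synthase and its member of lowest TPM, was one of the 7 members without overlap, with 13.4, 13.2, 12.5, 12.9 and 12.1 CPM in knockout pools and 9.96, 12.04, 11.9 and 11.99 CPM in wildtype pools. The groups were separated by less than 0.1 CPM, wildtype pool 1 stood lowest, and the edgeR adjusted p was 0.331.

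The levels of the nuclear subunit genes varied together from pool to pool. Set against the average of the 9 pools, the median log2 CPM of the 74 genes was −0.03, 0.02, 0.04, −0.02 and −0.0037 in the knockout pools and −0.01, −0.04, 0.12 and −0.07 in the wildtype pools. Wildtype pool 3 was thus the highest and wildtype pool 4 the lowest of all 9, and the knockout pools lay between them. Pool 3 held the highest of the 4 wildtype values in 65 of 74 genes and the highest of all 9 in 45, and pool 4 the lowest of the wildtype values in 42. The same pool 3 had the highest summed CPM of mitochondrial ribosomal protein genes, 2836 CPM, against 2579 to 2689 CPM in the other wildtype pools and 2607 to 2726 CPM in knockout pools. It also had the most red blood cell transcripts, 336 CPM over the 6 markers, against 110 to 205 CPM in the other wildtype pools and 73.8 to 99.6 CPM in knockout pools, where 5 of the 6 were called lower. The part of these cells in the subunit levels was not tested.

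**Figure D3:**
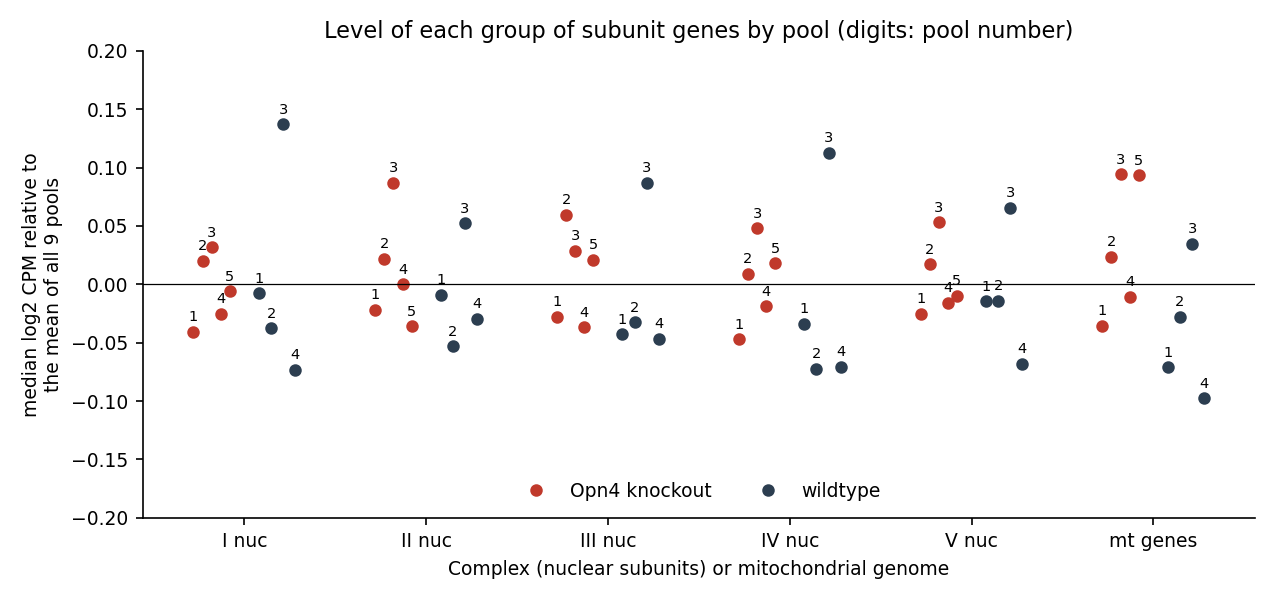
Median log2 CPM of the nuclear subunit genes of each complex and of the 13 mitochondrial genes in each pool, relative to the mean of the 9 pools; digits are pool numbers. Over all nuclear structural genes together (not drawn), wildtype pool 3 (0.12) and wildtype pool 4 (−0.07) lie on either side of the knockout pools. In complex II and in the mitochondrial genes, knockout pool 3 is the highest (0.09 in each), above wildtype pool 3 (0.05 and 0.03).

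The 13 mRNAs of the mitochondrial genome had mostly small positive values, and none passed the test. Their median log2 fold change was 0.07, 11 of 13 values were positive and 0 were called, and 11 of the 13 intervals stayed within 1.2-fold. The genes with the smallest p were the complex I subunits mt-Nd4l (chrM:9877-10173 on GRCm38) and mt-Nd5 (chrM:11742-13565), which lie in the part of complex I that pumps protons. The mt-Nd4l gene stood at 262, 279, 300.3, 289 and 299.9 CPM in knockout pools and at 258, 258, 243 and 253 CPM in wildtype pools. Every knockout pool was above every wildtype pool, and the fitted log2 difference was 0.18 (SE 0.05, interval 0.07 to 0.28, edgeR adjusted p = 0.0617). The mt-Nd5 gene stood at 2248, 2461, 2515, 2414 and 2540 CPM in knockout pools and at 2202, 2260, 2009 and 2142 CPM in wildtype pools. Knockout pool 1 fell below wildtype pool 2, and the fitted log2 difference was 0.18 (SE 0.05, interval 0.07 to 0.28, edgeR adjusted p = 0.0639). Without knockout pool 1, both genes were called higher (edgeR adjusted p = 0.0188 for mt-Nd4l and 0.0233 for mt-Nd5), when 0.961% of all genes were called higher. The same 2 genes were called without knockout pools 1 and 2, when 0.627% of all genes were called higher, and among genes with a mean CPM of at least 1, of which 2.08% were. Each of the 2 stayed uncalled under 18 of 22 alternatives. With single pools left out, the edgeR adjusted p reached 0.150 for mt-Nd4l and 0.151 for mt-Nd5.

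The core subunits of complexes III and IV showed smaller values. mt-Co1 stood at 11066, 11134, 11391, 10617 and 11119 CPM in knockout pools and at 10030, 10420, 10598 and 9983 CPM in wildtype pools, without overlap (log2 fold change 0.11, SE 0.04, edgeR adjusted p = 0.137). Without wildtype pool 3 it was called (adjusted p = 0.0411), when 1.01% of all genes were called higher. It stayed uncalled under 20 of 22 alternatives, with an edgeR adjusted p of up to 0.321 when single pools were left out. Cytochrome b, mt-Cytb, reached 3919 ± 162 CPM in knockout and 3610 ± 106 CPM in wildtype pools (0.12, SE 0.04, adjusted p = 0.158) and mt-Nd4 2154 ± 71.1 and 1993 ± 70.8 CPM (0.11, SE 0.04, adjusted p = 0.176), both without overlap. The other complex IV core subunits, which overlapped, were mt-Co2 at 2152 ± 106 CPM in knockout and 2060 ± 133 CPM in wildtype pools and mt-Co3 at 2359 ± 60.6 and 2232 ± 133 CPM. The ATP synthase subunits mt-Atp8 and mt-Atp6, on overlapping stretches of 1 transcript, had log2 fold changes of 0.06 and 0.02.

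The remaining complex I genes were mt-Nd2 (0.05), mt-Nd6 (0.07), mt-Nd1 (−0.0037) and mt-Nd3 (−0.0019). mt-Nd1 held 2883 ± 157 CPM in knockout and 2891 ± 166 CPM in wildtype pools, and mt-Nd3 169 ± 4.42 and 169 ± 12.1 CPM. mt-Nd6 (chrM:13552-14070) is encoded on the opposite strand to its neighbour mt-Nd5, and since the sources used here do not say that the counting used strand, reads from both strands cannot be told apart there. The genes did not all follow the same pools. Wildtype pool 3 was the highest wildtype pool for 10 of the 13 genes, but the lowest for mt-Nd4l and mt-Nd5.

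**Figure D4:**
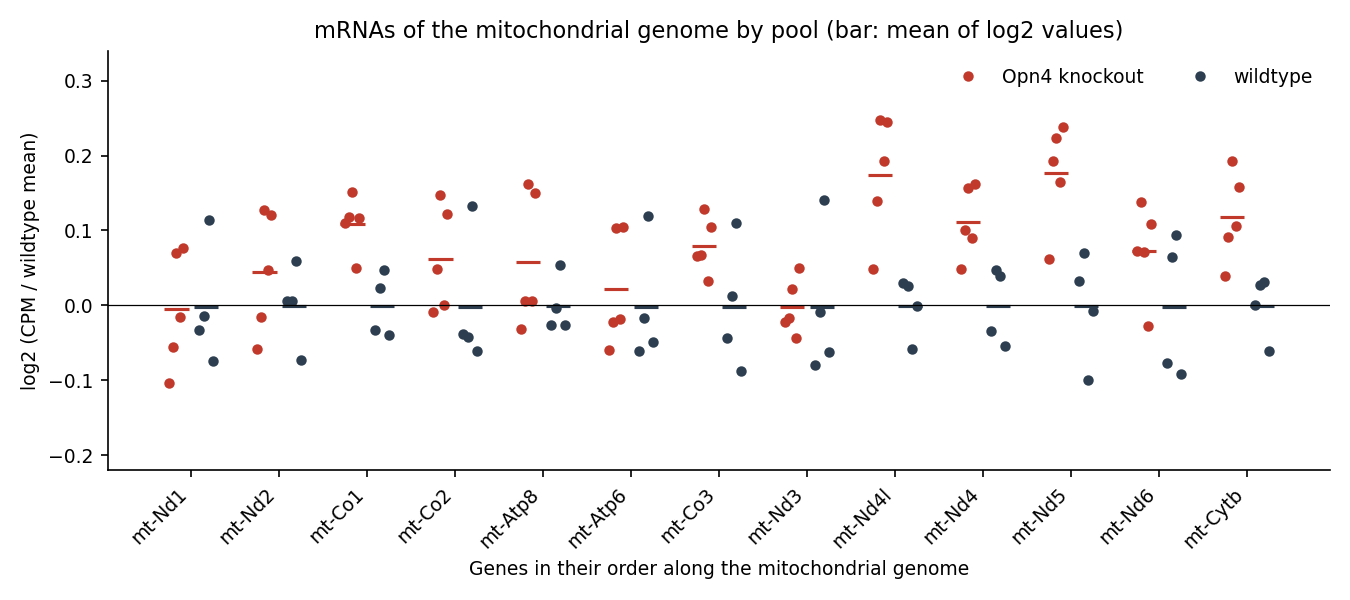
Log2 ratio of each pool's CPM to the wildtype mean for the 13 mitochondrial mRNAs in their order along the genome; bars are means of the log2 values. Knockout and wildtype pools do not overlap for mt-Co1, mt-Nd4l, mt-Nd4 and mt-Cytb, and the means of mt-Nd1 and mt-Nd3 lie together near 0.

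Mitochondrial sequence is also present as copies in nuclear chromosomes, and counts of several members are shared with them. On chromosome 1, Gm10222 matched 99.0% of the mt-Nd4l transcript at 100% identity and held 0.973 to 1.01 counts per count of mt-Nd4l. Gm28661 beside mt-Co2 (0.969 to 0.989), Gm28437 beside mt-Co3 (0.991 to 0.998), Gm10925 beside mt-Atp6 (1.04 to 1.05) and Gm28438 beside mt-Nd3 (1.07 to 1.12) were counted alike. In the TPM table the same copies were split otherwise, from 0 for Gm10222 to between 1.64 and 2.74 per unit of mt-Nd3 for Gm28438. Counts of gene and copy are therefore not independent, and summing them left a log2 fold change of 0.18 for mt-Nd4l (adjusted p = 0.0609). mt-Nd5 and mt-Co1 shared fewer counts, at most 0.00012 per count with Gm4076 and at most 0.10 per count with Gm29216, and had log2 fold changes of 0.18 and 0.10 after summing. Gm28439, at 100% identity over 63.6% of the mt-Nd4 transcript, held 0.380 to 0.401 counts per count of mt-Nd4. Summing these left a log2 fold change of 0.12 for mt-Nd4.

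The mitochondrial share of counts was slightly higher in knockout pools, with overlap. The mitochondrial members took 3.07, 3.13, 3.27, 3.07 and 3.22% of all counts in knockout pools and 2.93, 3.003, 3.11 and 2.87% in wildtype pools, with wildtype pool 3 inside the knockout range. Neither this share nor the ratios below include the counts listed under the nuclear copies named above. The nuclear structural genes took 0.840 ± 0.015% in knockout and 0.835 ± 0.042% in wildtype pools (SD, n = 5 and 4). The ratio of mitochondrial to nuclear summed CPM was 3.73, 3.70, 3.79, 3.68 and 3.85 in knockout pools and 3.53, 3.67, 3.48 and 3.60 in wildtype pools, so that the lowest knockout pool lay just above the highest wildtype pool. In TPM the same ratio was 3.71 ± 0.18 in knockout and 3.57 ± 0.08 in wildtype pools and overlapped. The mitochondrial ribosomal RNAs had log2 fold changes of 0.07 (mt-Rnr1) and 0.02 (mt-Rnr2). The 22 mitochondrial tRNA genes went the other way in 20 cases, with a median of −0.21, and 0 were called (2 at an unadjusted p under 0.05, smallest edgeR adjusted p = 0.195). The labels describe poly-A RNA, and the origin of these tRNA counts was not tested.

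The log2 fold changes of largest size among the members were those of Cox6a2, Ndufa4l2, Cox6b2 and Cox4i2, none of them called. Cox6b2 (chr7:4751792-4753094, minus strand) stood at 6.30, 5.97, 5.17, 6.06 and 5.52 CPM in knockout pools and at 6.94, 7.28, 8.58 and 7.31 CPM in wildtype pools. All knockout pools were below all wildtype pools, with a log2 fold change of −0.37 (SE 0.10, interval −0.59 to −0.16, edgeR adjusted p = 0.0593). In the authors' deposited table it was the member of smallest q-value, 0.0517, with a log2 effect of −0.43. It made up 5.53 ± 0.88% of Cox6b1 and Cox6b2 TPM together in knockout and 7.17 ± 0.25% in wildtype pools, while Cox6b1 itself held 107 ± 2.25 and 110 ± 9.30 CPM.

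The low-oxygen isoforms were also lower in value without passing the test. Ndufa4l2 (chr10:127514967-127517154, plus strand), a relative of Ndufa4 that is induced by hypoxia in other cells, stood at 71.5, 85.4, 111, 93.1 and 103 CPM in knockout pools and at 104, 92.8, 167 and 129 CPM in wildtype pools. The groups overlapped, with wildtype pools 3 and 4 above every knockout pool, and the fitted log2 difference was −0.41 (SE 0.16, edgeR adjusted p = 0.196). It was −0.23 without wildtype pool 3 and −0.53 without wildtype pool 2. Cox4i2 (chr2:152754173-152765037, plus strand), the low-oxygen partner of Cox4i1, stood at 19.6, 19.3, 25.1, 23.1 and 24.8 CPM in knockout pools and at 26.7, 21.7, 35.7 and 27.4 CPM in wildtype pools. Again the groups overlapped, through wildtype pool 2, and the fitted log2 difference was −0.32 (SE 0.13, edgeR adjusted p = 0.222). Leaving out wildtype pool 3 gave −0.18, leaving out wildtype pool 2 gave −0.42, and leaving out both knockout pools 1 and 2 gave −0.20. Their shares of the TPM of the isoform pair were 26.5 ± 3.04% in knockout and 33.1 ± 4.25% in wildtype pools for Ndufa4l2, and 7.31 ± 0.75% and 8.92 ± 1.02% for Cox4i2. Wildtype pool 3, highest in both, was also the pool with most red blood cell transcripts. Endothelial and pericyte markers summed to 447 to 496 CPM in knockout pools and to 400 to 476 CPM in wildtype pools, lowest in pool 3, and 0 of 8 were called. Their part in these values was not tested.

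The muscle isoforms Cox6a2 and Cox7a1 held under 1 CPM. Cox6a2, the heart and skeletal muscle isoform of subunit 6a, had 19, 28, 8, 16 and 27 counts in knockout pools and 8, 0, 0 and 8 counts in wildtype pools. The groups met at 8 counts and were apart only in CPM (lowest knockout pool 0.123 CPM, highest wildtype pool 0.0993 CPM). These were 114 counts in all, and the fitted log2 fold change of 2.34 (SE 0.80, edgeR adjusted p = 0.148) depends on the prior count where pools are at 0. It made up 0.13 ± 0.04% of the Cox6a1 and Cox6a2 TPM in knockout and 0.04 ± 0.01% in wildtype pools. Cox7a1, the muscle partner of Cox7a2, held 0.744 ± 0.117 CPM in knockout and 0.692 ± 0.081 CPM in wildtype pools, or 2.26 ± 0.36% and 2.08 ± 0.35% of the pair's TPM. Cox8b, Cox8c and Cox7b2 each had counts in 1 pool alone. Marker genes of skeletal and heart muscle summed to 11.9 to 15.1 CPM in knockout pools and 11.1 to 12.7 CPM in wildtype pools, and 0 of the 6 tested were called. The general partners Cox6a1, Cox7a2, Cox7b and Cox7a2l, the last a factor of respiratory supercomplexes, had log2 fold changes of 0.03, −0.04, −0.01 and −0.05.

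Genes that act around the subunits are read against the 3.59% of all genes called in either direction. Of the 12 assembly factors among the members, 9 had positive values, with a median log2 fold change of 0.05 and a range of −0.11 to 0.11. Ndufaf6 held 6.88 ± 0.65 CPM in knockout and 7.05 ± 0.44 CPM in wildtype pools, and Sdhaf3 13.3 ± 1.06 and 12.5 ± 1.30 CPM. Outside the members, 0 of 11 further complex I assembly factors, 0 of 27 of complexes III and IV, 0 of 5 of complex V, 0 of 7 electron carriers and ubiquinone reductases, 0 of 24 genes of mitochondrial DNA upkeep and expression, 0 of 24 genes of the citric acid cycle, 0 of 14 of mitochondrial shape and 0 of 78 mitochondrial ribosomal proteins were called in either direction. In the lists of biogenesis regulators and of nucleotide carriers and creatine kinases, 1 of 12 and 1 of 10 genes were called, both higher, beside 1.34% of all genes called higher.

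Ppargc1a, the coactivator PGC-1 alpha that drives mitochondrial gene programmes, rose, with 23.9, 23.4, 22.7, 21.5 and 20.97 CPM in knockout pools and 16.2, 17.97, 15.9 and 19.2 CPM in wildtype pools. All knockout pools were above all wildtype pools, and the fitted log2 difference was 0.38 (SE 0.07, edgeR adjusted p = 0.0102). The call was lost in TPM (log2 fold change 0.30, adjusted p = 0.153) and without knockout pools 1 and 2, which held lens transcripts at 15.8 and 13.7 CPM (0.32, adjusted p = 0.0654). Ppargc1b, its relative PGC-1 beta, held 13.6 ± 2.03 CPM in knockout and 9.09 ± 1.97 CPM in wildtype pools, overlapping and just outside the threshold (0.58, SE 0.15, edgeR adjusted p = 0.0513), and was called under 7 of 22 alternatives. Tfam, the packaging and transcription factor of mitochondrial DNA, had the opposite sign, with 50.3 ± 1.67 CPM in knockout and 55.8 ± 2.03 CPM in wildtype pools. Its knockout pools all lay below its wildtype pools, with a log2 difference of −0.15 (SE 0.04, edgeR adjusted p = 0.0963) that was called with DESeq2 (adjusted p = 0.0304) and under no other alternative run. The factors named above for the promoters had log2 fold changes of −0.10 (Nrf1), 0.10 (Gabpa) and 0.0095 (Yy1), none called. Ckmt1, the mitochondrial creatine kinase that passes phosphate from ATP to creatine, rose to 45.5 ± 2.97 CPM in knockout pools, against 37.8 ± 2.43 CPM in wildtype pools (0.27, SE 0.06, edgeR adjusted p = 0.0334). Its call was lost under 12 of 22 alternatives. Among these, it was lost when any of 7 of the 9 pools was left out (edgeR adjusted p up to 0.0963), all but knockout pool 5 and wildtype pool 2. It was also lost in TPM (limma adjusted p = 0.0724). The log2 fold change of Ckmt1 stayed between 0.23 and 0.30 under every alternative run. Rod markers were higher in the same pools, and their part in either gene was not tested.

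**Figure D5:**
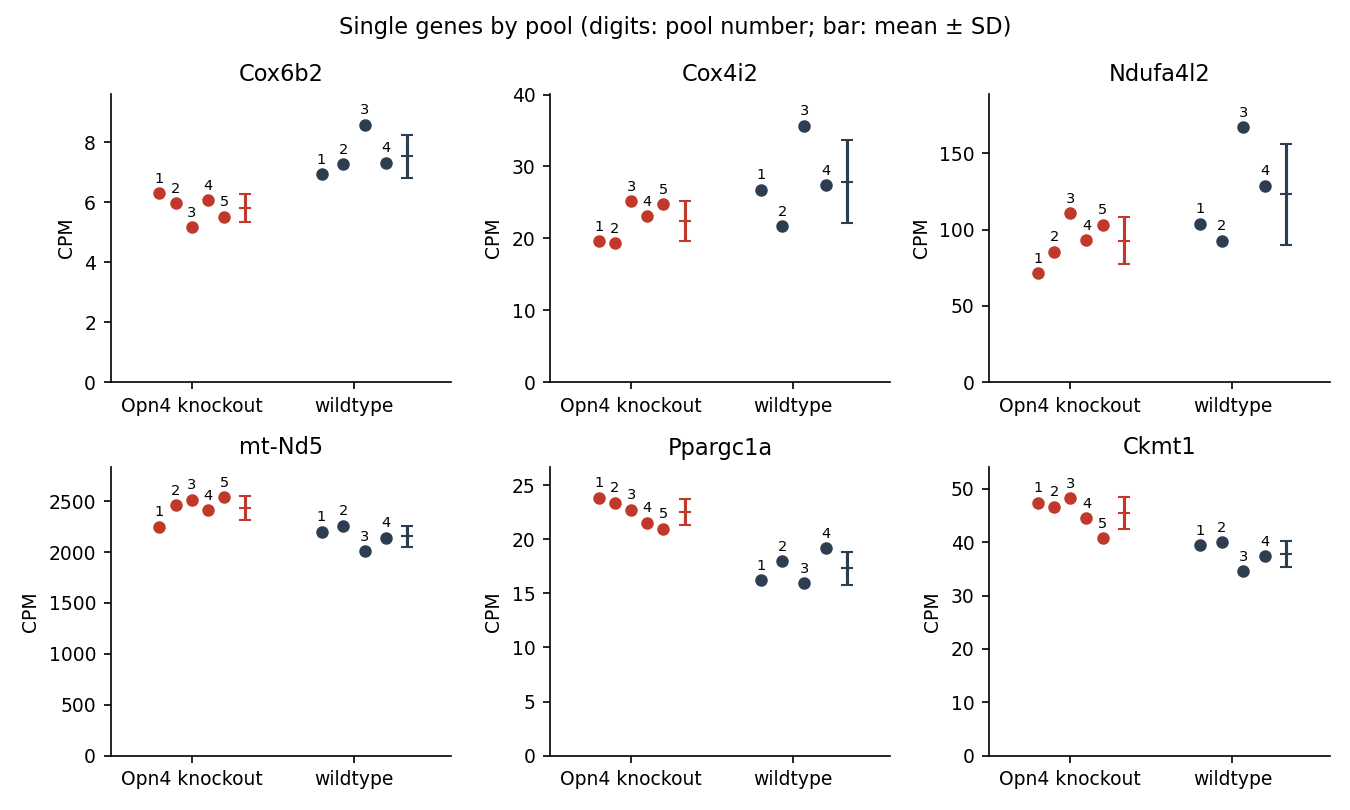
CPM by pool for Cox6b2, Cox4i2, Ndufa4l2, mt-Nd5, Ppargc1a and Ckmt1, knockout left and wildtype right, with mean ± SD (n = 5 and 4); digits are pool numbers. Knockout and wildtype pools are separated for Cox6b2, Ppargc1a and Ckmt1, and overlap for mt-Nd5, Ndufa4l2 and Cox4i2, the last 2 with wildtype pool 3 on top.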

How the data were processed

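Poly-A RNA of whole neural retina at P4 was sequenced from 5 Opn4 knockout and 4 wildtype pools. The authors deposited whole-number counts per gene symbol, and the program that made them, and how it treated reads with several matches, are not given in the sources used here. Kallisto 0.46.1 after Trimmomatic 0.39 gave the deposited TPM values on GRCm38, per the submitters' processing notes. They are listed per transcript and do not sum to the same total in each pool, so these deposited values were treated as a signal rescaled by the authors, and summed per gene symbol. The authors' comparison (sleuth 0.30.8, per the submitters' processing notes) gives p-values and q-values, and an effect with its standard error on the natural log scale, per the file headers. Positive deposited effects are higher in wildtype, which was read from Opn4, and they were turned to log2, knockout minus wildtype.

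Counts were tested with edgeR 4.0.16 in R 4.3.3 (filterByExpr, TMM scaling, quasi-likelihood test, two-sided, Benjamini-Hochberg adjustment over all 21150 genes, threshold 0.05), which was checked on simulated counts. The standard error was taken from the fold change and its F value, and intervals are 95%. With 65.5 to 86.1 M counts per pool, depth limits the genes under about 1 CPM. Alternatives were DESeq2 1.42.0 and limma 3.58.1 on log2(TPM + 0.5) of genes with at least 1 TPM in at least 4 pools, a scale that understates changes of low genes, and other scalings, filters and pools left out. Near-identical copies were found with BLAST 2.17.0 among GENCODE M21 transcripts of GRCm38 at 95% identity or more. Pools of a genotype came from separate animals, and no pair of pools matched within sampling noise.

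The members and gene lists were chosen with earlier results of these data known. Genes named by rule were all mitochondrial members, the nuclear members of highest and lowest TPM (above 1) of each complex, the 5 with the smallest p and the 5 with the largest change, the isoforms with their partners, and the called genes of the other lists. Ndufs1, Ndufv1, Ndufb2, Ndufa12, Ndufa2, Ndufb4, Sdha, Sdhaf4, Uqcrfs1, Nrf1, Gabpa and Yy1 fall outside the rule and were chosen for their role or value after the values were seen.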

Additional observations from a re-analysis of the deposited data

Results flagged for a closer look

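In 86 groups of pools (1 gene in 1 genotype), the highest or lowest pool was tested for its distance from the others by Dixon's criterion at 95%. It stood apart in 12. Chance gives about 1 in 20 for independent groups, but these groups share the same pools and their genes vary together, so the 2 rates cannot be compared. Wildtype pool 3 was the high pool in 5 of the cases. It held 2258 CPM of mt-Co2 (next highest wildtype pool 2006 CPM), 333 CPM of Cox4i1 (next 280 CPM), 179 CPM of Uqcrc1 (next 156 CPM), 179 CPM of Cox6a1 (next 153 CPM) and 149 CPM of Ndufa4 (next 132 CPM). Wildtype pool 1 was low in Atp5s with 9.96 CPM, against 11.9 CPM in the next wildtype pool. Among knockout pools, pool 1 was low in Cox6a1 (144 CPM, next 164 CPM), pool 2 was high in Uqcrh (97.7 CPM, next 92.8 CPM) and pool 5 was high in Cox7b (71.0 CPM, next 64.7 CPM). The isoforms Cox8c (0.0392 CPM in knockout pool 1), Cox7b2 (0.0745 CPM in wildtype pool 4) and Cox8b (0.236 CPM in wildtype pool 4) were at 0 in every other pool of the same genotype.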

How the results depend on the processing

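The count of members called depended on the method. The 760 genes called in all became 1509 with DESeq2, 330 on TPM (337 with a pseudocount of 0.1, 194 without a filter), 486 without knockout pools 1 and 2, and 524 to 859 when single pools were left out. The 0 members called higher became 3 with DESeq2, 2 with a mean CPM of at least 1, 2 without knockout pools 1 and 2, 2 at an adjusted p under 0.1, and 0 to 2 when single pools were left out. The 0 members called lower became 1 with DESeq2 and 1 at an adjusted p under 0.1, and 0 to 0 when single pools were left out. The median log2 fold change stayed between −0.01 and 0.04 for the nuclear structural genes and between 0.05 and 0.11 for the mitochondrial genes under every alternative run.

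With the replicate number as a block, 888 genes were called and 2 members were lower, Ndufa4l2 (−0.43, adjusted p = 0.0106) and Cox4i2 (−0.34, adjusted p = 0.0387), and Uqcrh had a log2 fold change of 0.0045. Pools with the same number correlated at 0.0225, 0.0312, 0.102 and −0.0423 in their deviations, and not every pool correlated best with its own number. Such correlations cannot decide whether pools of the same number shared a litter or a batch, and no label joins them.

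Of 805 values of 37 named members under the alternatives, 33 in 12 genes changed sign. On TPM, mt-Co2 was at −0.017 and mt-Nd3 at 0.11 with each pseudocount and filter (lowest adjusted p = 0.435), against −0.0019 in counts. The authors' deposited table has mt-Nd3 at 0.17 (p = 0.0490, q = 0.427). Without knockout pools 1 and 2, mt-Nd1 was at 0.041, mt-Nd3 at 0.0061, Cox7a1 at −0.056 and Cox7b at 0.013. When single pools were left out, mt-Nd1 ranged from −0.031 to 0.037, mt-Nd3 from −0.031 to 0.049, mt-Atp6 from −0.00062 to 0.066, Ndufv3 from −0.079 to 0.0081, Uqcrh from −0.022 to 0.033, Uqcrc1 from −0.0094 to 0.086, Cox4i1 from −0.014 to 0.096, Cox6b1 from −0.089 to 0.013, Cox7a2 from −0.075 to 0.022 and Cox7b from −0.048 to 0.023. The cause was not tested. Cox6a2 could not be fitted where it fell under a filter. Summing genes with their copies was an alternative chosen after seeing the data, and it changed no call of a member.

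At this depth the nuclear structural genes were measured closely enough to see 1.5-fold changes. Cox6a2, at under 1 CPM, was not. A p above the threshold does not show that a gene was equal in both genotypes. The labels give neither litter nor sex, and their part in the spread between pools was not tested.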
